A study of Chlamydomonas reinhardtii with 28 samples.

Results

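Trimethylation of lysine 9 of histone H3 (H3K9me3) was compared between an mt+ and an mt- strain of the green alga Chlamydomonas reinhardtii, using 4 of the 28 samples of the series. A peak was taken as a consistent mt+ peak when the list of wild-type (WT) mt+ cells held it, a peak of the dnmt1 mt+ list overlapped it by at least 1 bp, and no peak of either mt- list did. Consistent mt- peaks were chosen by the reverse rule. There were 73 consistent mt+ peaks among the 12026 peaks of the WT mt+ list and 185 consistent mt- peaks among the 12430 of the WT mt- list.

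All cells were vegetative and grown in TAP medium. The mt+ libraries came from strain CC-5155 and the mt- libraries from strain CC-5325, each as WT and as a knockout of DNMT1, a maintenance cytosine methyltransferase. Each combination had 1 library, precipitated with an H3K9me3 antibody from Cell Signaling Technology. The strains carry different names and may differ in more than mating type, so the effect of mating type and that of strain background cannot be told apart. The WT and dnmt1 libraries of a strain are not replicates, and no p-value was computed. Wilson 95% intervals cover counting error only.

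Mating type in this haploid alga is set by a region of chromosome 6 that exists in a plus and a minus version and does not recombine between them. The plus version carries the fusion gene FUS1 and the minus version the regulator MID, which switches on the minus programme. H3K4me3 marks the promoters of active genes in many eukaryotes, whereas H3K9me3 is best known from silent chromatin of animals and fungi. In this alga H3K9me1 is the better known mark of silenced repeats and transgenes. The build used in the files holds 17 chromosomes, 40 contigs and a separate sequence named mating_type_plus. The sources used here do not give its name or the version of the mating-type region on its chromosome 6, and no annotation of it was used, so the peaks below are placed by coordinate and not by gene.

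The H3K9me3 lists were of similar length, with 12026 and 12211 peaks in the WT and dnmt1 cells of mt+, and 12430 and 12467 in those of mt-. The files give no read counts. The median local background at a summit, recovered from the authors' fold and p-value as a scaled pileup, was 25 for WT and 31.2 for dnmt1 cells of mt+, and 31 and 30.8 for those of mt-. WT mt+ was therefore the library with the lowest background and the shortest list, and the part of this in the unequal counts of consistent peaks was not tested.

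Consistent strain differences were rare. They made up 0.607% of the WT mt+ list (95% interval 0.483 to 0.762) and 1.49% of the WT mt- list (1.29 to 1.72). Counted in the dnmt1 lists, there were 70 mt+ peaks (0.573%) and 179 mt- peaks (1.44%). In H3K4me3, the same rule found 45 mt+ peaks (0.295%) and 67 mt- peaks (0.434%). Together the mt+ peaks covered 28.3 kb of the 8.30 Mb under the WT list, and the mt- peaks 71.1 kb of 8.91 Mb. Their median width was 346 bp in both strains, with quartiles of 299 and 419 bp in mt+ and of 305 and 418 bp in mt-. The whole lists had medians of 629 and 656 bp.

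The peaks fell into a small group at the mating-type sequences and a larger, weaker group spread over the genome. Of the 73 mt+ peaks, 11 lay on mating_type_plus and 1 in the first 1 Mb of chromosome 6. Of the 185 mt- peaks, 14 lay in the first 1 Mb of chromosome 6 and none on mating_type_plus. The remaining 61 and 171 peaks lay elsewhere. On mating_type_plus, 11 of the 18 WT mt+ peaks were consistent mt+ peaks (61.1%, 38.6 to 79.7). In the first 1 Mb of chromosome 6, 14 of the 107 WT mt- peaks were consistent mt- peaks (13.1%, 7.96 to 20.8).

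The mating_type_plus sequence carried H3K9me3 mainly in the mt+ strain. WT mt+ had 18 peaks there over 10.6 kb and dnmt1 mt+ had 15 over 8.93 kb, whereas each mt- list had 4, over 1.70 and 1.65 kb. Of the 18 WT mt+ peaks, 11 were consistent, 4 were found in all 4 lists and 3 were in WT mt+ alone. The map of this sequence shows 5 of the 11 consistent peaks within 31.1 kb. The placement of reads that match both this sequence and chromosome 6 is unstated in the labels, and the input libraries were not analysed here. At 8 of the 11 consistent peaks the mt- libraries had no H3K4me3 peak either. A missing mark and a missing sequence in the mt- strain therefore cannot be told apart at these 8. At the other 3, H3K4me3 was called in both mt- libraries, with the same doubt about the placement of reads.

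**Figure D1:**
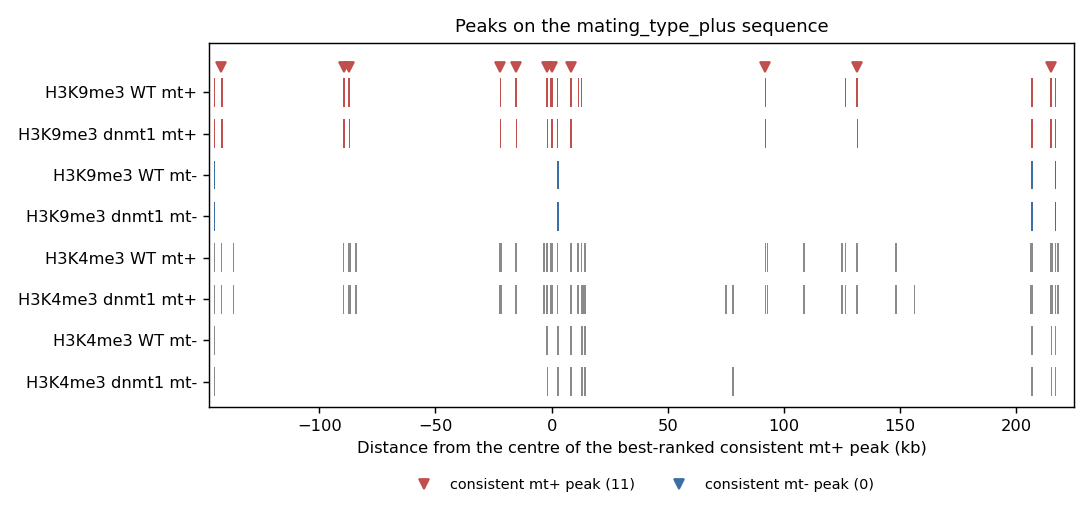
Peaks of the 4 H3K9me3 lists (red mt+, blue mt-) and the 4 H3K4me3 lists (grey) on the mating_type_plus sequence, by distance in kb from the centre of its best-ranked consistent mt+ peak. Bars mark peaks and have a minimum drawn width, and triangles mark the 11 consistent mt+ peaks; each mt- H3K9me3 list has 4 peaks.

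The best-ranked mt+ peak ran from 146773 to 147826 on mating_type_plus and was also the widest, at 1054 bp. The authors' fold enrichment over local background at its summit was 6.28 in WT mt+ and 3.94 in dnmt1 mt+, and neither mt- list had a peak there. An H3K4me3 peak lay on it in both mt+ libraries, with folds of 5.66 and 4.05, and in neither mt- library. Both marks were thus present at this place in both mt+ genotypes and in no mt- list.

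It belonged to the only group of at least 3 consistent mt+ peaks with gaps of up to 20 kb, which held 5 peaks from 124878 to 155991. The peak from 124878 to 125671 had H3K9me3 folds of 3.39 in WT and 3.71 in dnmt1, and that from 131729 to 132428 had 3.95 and 2.90. H3K4me3 lay on both in the mt+ libraries alone, with folds of 7.01 and 5.77 on the first and 5.49 and 4.95 on the second. The other two members of the group differed in this respect. At 145007 to 145548 the H3K9me3 folds were 3.71 and 1.75, and H3K4me3 was called in all 4 libraries, at 5.56 and 3.18 in mt+ and 4.03 and 3.99 in mt-. At 155345 to 155991 they were 3.75 and 2.93, and H3K4me3 was again called in all 4 libraries, at 3.84 and 4.01 in mt+ and 4.16 and 4.20 in mt-.

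Outside that group the sequence held 6 more consistent mt+ peaks. The strongest, from 361745 to 362653, had H3K9me3 folds of 3.45 and 3.34 and H3K4me3 in all 4 libraries (5.37 and 3.72 in mt+, 4.11 and 3.92 in mt-). The other 5 carried H3K4me3 in both mt+ libraries and in no mt- library. They began at 5018 (H3K9me3 folds of 2.74 in WT and 2.71 in dnmt1), 57529 (2.58 and 2.21), 59754 (2.11 and 2.56), 239028 (2.44 and 2.05) and 278470 (2.71 and 2.82). In all, H3K4me3 was called at all 11 peaks in both mt+ libraries, and at 8 of the 11 in no mt- library.

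The single consistent mt+ peak in the first 1 Mb of chromosome 6 lay from 661707 to 662097, with folds of 2.80 in WT and 2.29 in dnmt1. An mt- H3K9me3 peak lay only 65 bp away, the smallest such gap of any consistent mt+ peak, and H3K4me3 was called there in all 4 libraries. By distance it is the mt+ peak closest to failing the rule. The weakest dnmt1 partner of a consistent mt+ peak, on chromosome 3, had a -log10 q of 2.01.

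In the mt- strain the strongest consistent peaks lay on chromosome 6. Of the 8 with the best rank by fold in both mt- lists, 7 were in its first 1 Mb and the other began at 1312644. The best-ranked ran from 640141 to 640931 with H3K9me3 folds of 5.84 in WT mt- and 3.99 in dnmt1 mt-. Its H3K4me3 folds were 4.81 and 4.26 in mt-, and no mt+ library had an H3K4me3 peak there. The nearest mt+ H3K9me3 peak was 7535 bp away.

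**Figure D2:**
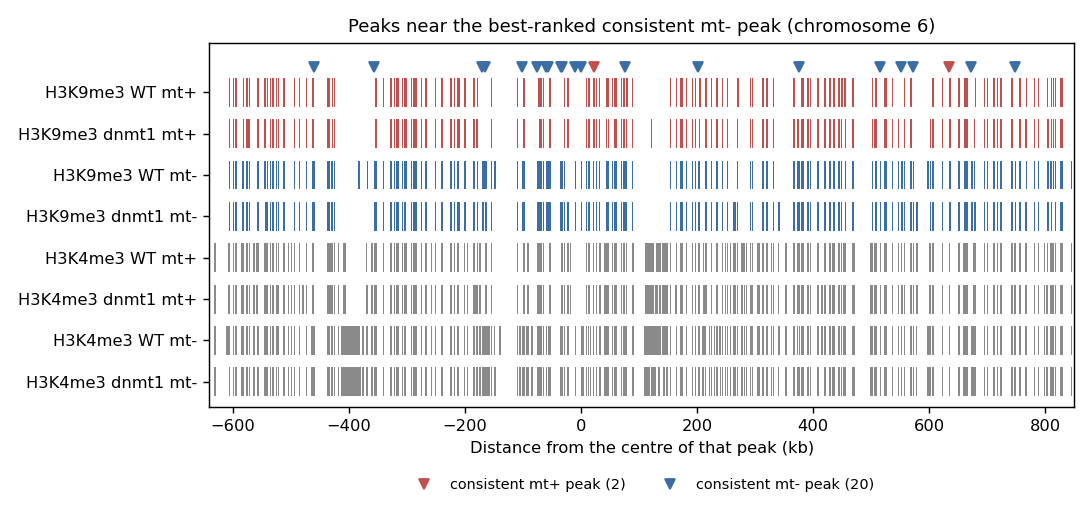
Peaks of the 4 H3K9me3 lists (red mt+, blue mt-) and the 4 H3K4me3 lists (grey) in the first part of chromosome 6, by distance in kb from the centre of the best-ranked consistent mt- peak. Bars mark peaks and have a minimum drawn width; blue triangles mark consistent mt- peaks, of which 14 lie in the first 1 Mb, and red triangles consistent mt+ peaks.

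Several neighbours behaved likewise. H3K9me3 folds were 4.32 in WT mt- and 3.85 in dnmt1 mt- from 715194 to 715989. They were 4.35 and 3.71 from 580105 to 581057, and 4.07 and 2.92 from 629469 to 630335. From 604578 to 605542, the widest consistent mt- peak at 965 bp, they were 3.38 and 2.96. At each of these 4 places H3K4me3 was called in both mt- libraries and in neither mt+ library.

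The same held on either side of them. The peak from 179015 to 179704 had H3K9me3 folds of 3.60 and 3.24, and H3K4me3 folds of 3.16 and 4.68 in mt- alone. The one from 1312644 to 1313266, the only such place beyond the first 1 Mb, had H3K9me3 folds of 3.46 and 3.42, and H3K4me3 folds of 4.49 and 4.28 in mt- alone. The 3 weaker peaks, beginning at 469887 (H3K9me3 folds of 2.91 and 3.05), 538633 (2.23 and 2.56) and 583593 (2.44 and 1.84), also had H3K4me3 in both mt- libraries and in no mt+ library. The peaks at 580105 and 583593, with that at 564817, formed 1 of the 2 groups of at least 3 consistent mt- peaks with gaps of up to 20 kb.

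H3K4me3 was called in both strains at the other 5 of the 14 peaks. The strongest of these, from 283481 to 283991, had H3K9me3 folds of 3.99 in WT mt- and 3.70 in dnmt1 mt-. Its H3K4me3 folds were 4.75 and 5.06 in mt+ and 4.26 and 4.65 in mt-. The others began at 475408 (H3K9me3 folds of 2.62 and 2.50), 564817 (2.42 and 2.90), 606648 (3.07 and 3.08) and 842146 (2.32 and 2.00). At the chromosome 6 peaks where mt+ had neither mark, a missing mark and a missing sequence in the mt+ strain cannot be told apart. The placement of reads between chromosome 6 and mating_type_plus, unstated in the labels, bears on these peaks too.

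H3K4me3 of chromosome 6 also differed in number between the strains in the same stretch. In its first 1 Mb, 211 H3K4me3 peaks were called in WT mt- and 198 in dnmt1 mt-, against 151 and 160 in mt+. The gap was widest from 200 to 300 kb, with 37 and 38 in mt- against 13 and 14 in mt+. H3K9me1 peaks in the first 1 Mb numbered 83 for WT and 36 for dnmt1 cells of mt-, against 29 and 9 for those of mt+. The H3K9me1 lists also differ in length, with 4113 and 2716 peaks in mt- and 3831 and 1248 in mt+, and the H3K4me1 counts of the window, 65 and 10 in mt- against 26 and 103 in mt+, went with lists of 5151, 1104, 2067 and 12718 peaks. None of the 14 consistent H3K9me3 peaks overlapped an H3K9me1 peak of any WT or dnmt1 library. Of all 107 WT mt- H3K9me3 peaks in the window, 1 overlapped a WT mt- H3K9me1 peak (0.935%) and 0 a WT mt+ one. The 14 were therefore near the share of the whole window. For H3K9me3 itself, 89 of the 107 WT mt- peaks of the first 1 Mb (83.2%) overlapped a WT mt+ peak, and 858 of 921 (93.2%) on the rest of the chromosome.

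H3K4me3 lay at nearly all consistent peaks in their own strain, but not always in the other. It was called in the strain of the peak, in WT or dnmt1, at 70 of the 73 mt+ peaks and 181 of the 185 mt- peaks. In the WT library alone this was 69 of 73 (94.5%, 86.7 to 97.8) and 180 of 185 (97.3%, 93.8 to 98.8), beside 99.6% and 99.7% of all peaks of the 2 lists. In the other strain, no H3K4me3 peak of either genotype lay at 11 mt+ peaks (15.1%, 8.63 to 25.0) and 14 mt- peaks (7.57%, 4.56 to 12.3), beside 0.540% and 0.314% of the whole lists. Of these, 8 and 10 had H3K4me3 in their own strain. All 8 lay on mating_type_plus, and all 10 on chromosome 6, 9 of them in its first 1 Mb. Of all 18 WT mt+ H3K9me3 peaks on mating_type_plus, 10 (55.6%, 33.7 to 75.4) had no mt- H3K4me3 peak. These 18 include the 11 consistent ones, of which 8 (72.7%, 43.4 to 90.3) had none. The shares are thus not independent, and the peaks there that failed the rule were not counted apart. Of all 107 WT mt- H3K9me3 peaks in the first 1 Mb of chromosome 6, 13 (12.1%, 7.24 to 19.7) had no mt+ H3K4me3 peak.

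**Figure D3:**
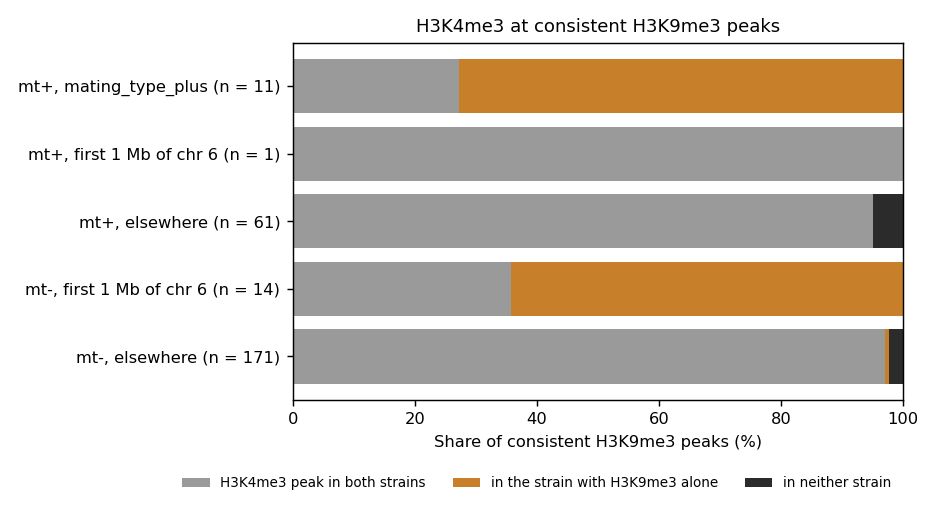
Share of consistent H3K9me3 peaks, by strain and place, with an H3K4me3 peak (WT or dnmt1) in both strains, in the strain of the H3K9me3 peak alone, or in neither. The second class holds 8 of 11 peaks on mating_type_plus and 9 of 14 mt- peaks in the first 1 Mb of chromosome 6, against 0 of 61 mt+ and 1 of 171 mt- peaks elsewhere. Of all H3K9me3 peaks at these 2 places, 10 of 18 (WT mt+) and 13 of 107 (WT mt-) had no H3K4me3 peak in the other strain.

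Seen from H3K4me3, 18 of the 45 consistent mt+ H3K4me3 peaks lay on mating_type_plus, and 54 of the 67 consistent mt- H3K4me3 peaks lay in the first 1 Mb of chromosome 6. A consistent H3K9me3 peak of the same strain lay on 8 of the 45 (17.8%) and 10 of the 67 (14.9%), which is 11.0% of the mt+ and 5.41% of the mt- H3K9me3 peaks.

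Elsewhere in the genome, the consistent peaks were short and ranked low in their lists. Their median -log10 q was 6.38 in mt+ and 7.71 for the 169 mt- peaks on chromosomes, above the cut of the lists near 2 but below the medians of all peaks, 25.7 in WT mt+ and 29.1 for the mt- list. The median width of the 61 mt+ peaks was 338 bp and that of the 171 mt- peaks 340 bp, while the mating-type peaks had medians of 645 bp in mt+ and 613.5 bp in mt-. Folds reached 3.12 in WT mt+ and 3.47 in WT mt-, with medians of 2.30 and 2.23. When each list was ranked by fold, the 61 peaks had a median rank of 91.4% down the WT mt+ list and 89.8% down the dnmt1 mt+ list. For the 171 peaks the medians were 90.8% and 88.9% in the corresponding mt- lists. None of them was in the upper 50% of both lists of its strain, beside 1 of the 12 mt+ and 4 of the 14 mt- peaks at the mating-type sequences. The 12 had median ranks of 67.9% in WT and 66.9% in dnmt1, and the 14 of 60.6% and 60.4%. Most mating-type peaks thus also missed the upper 50% of both lists. Fold and width took part in the calling of peaks, so these values describe what the rule selected.

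**Figure D4:**
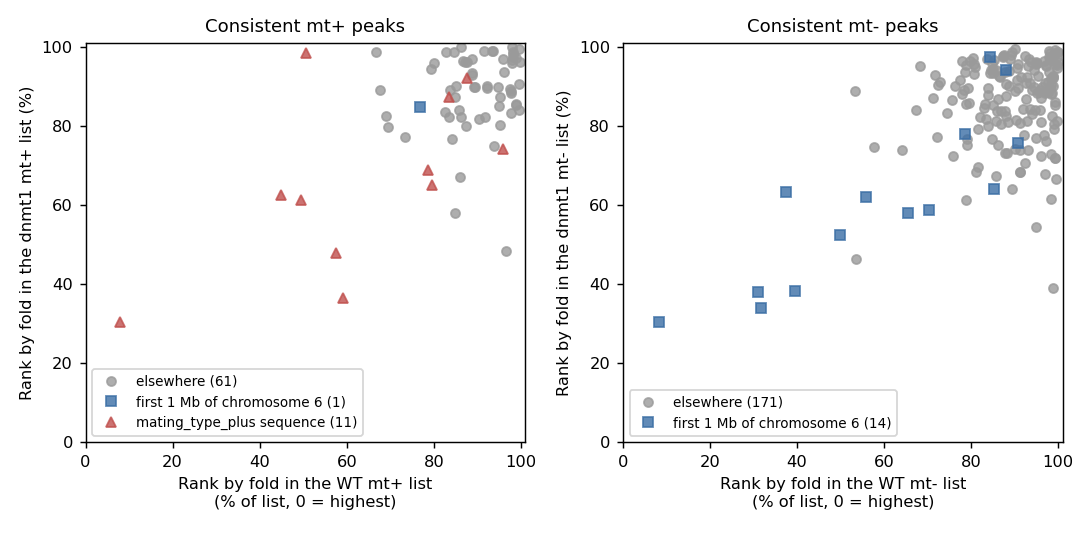
Rank of each consistent peak by the authors' fold in the WT list (x axis) and the dnmt1 list (y axis, highest overlapping peak) of its strain, in percent of the list with 0 as the highest fold. Peaks elsewhere (grey) crowd at the low end of both lists; the best-ranked peaks lie on mating_type_plus (red) or in the first 1 Mb of chromosome 6 (blue).

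The share of a list that met the rule fell with the strength of the peak. The q-value also decided entry to the lists, and a weak peak may lie just under the threshold in another list. The fall therefore describes what the rule selected, and the part of the threshold in it was not tested. Outside the mating-type sequences, 6.07% of the WT mt+ peaks with a -log10 q under 5 were consistent mt+ peaks, 2.30% of those from 5 to 10, 0.207% of those from 10 to 20, and 0 of 7137 at 20 or more, which allows a share of up to 0.0420%. In mt- the shares were 14.7%, 6.35%, 1.58% and 3 of 8065 (0.0372%). Those 3 began at 1312644 on chromosome 6, described above, and at 1155033 on chromosome 6 and 7002783 on chromosome 16, both chosen after their values were seen.

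Some consistent peaks had a peak of the other strain close by. An H3K9me3 peak of the other strain lay within 1 kb of 20 of the 73 mt+ peaks and 52 of the 185 mt- peaks, and the median distance was 2810 and 3015 bp. The closest were 65 and 47 bp away. No share or distance for other places was computed, so these values do not show that the peaks lay unusually close. The WT H3K4me3 peak under the consistent peak also held an H3K9me3 peak of the other strain at 4 of 69 mt+ places. In mt- it did so at 20 of 180 places. For all peaks of the lists, where overlap was allowed, these shares were 98.5% and 96.7%. Just outside the rule, the least overlap with the other strain was 85 bp among WT mt+ peaks found in both mt+ lists and 93 bp among the corresponding mt- peaks. Peaks present in both mt+ lists and in 1 mt- list numbered 212 (WT mt-) and 103 (dnmt1 mt-), and those present in both mt- lists and in 1 mt+ list 262 (WT mt+) and 241 (dnmt1 mt+).

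After overlapping peaks of the 4 lists were merged, 10930 regions (81.1%) held a peak in every list. Regions with a peak in both mt+ lists alone numbered 70 and in both mt- lists alone 178. Regions shared by the 2 WT lists alone numbered 123, and by the 2 dnmt1 lists alone 236. The 2 pairs that share neither strain nor genotype held 81 (WT mt+ with dnmt1 mt-) and 126 (WT mt- with dnmt1 mt+). The mt+ count, its mating-type regions included, was thus below the count of either such pair, and the mt- count was above both.

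**Figure D5:**
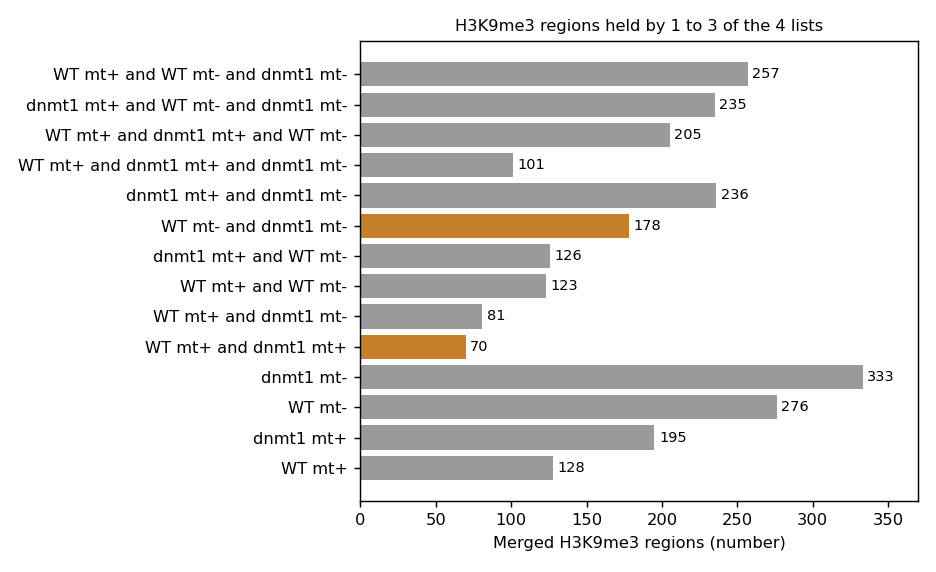
Number of merged H3K9me3 regions held by 1, 2 or 3 of the 4 lists, by the lists that hold a peak; the 10930 regions in all 4 are not drawn. Orange bars are the strain-consistent classes, with 178 regions in mt- and 70 in mt+, beside 81 to 236 for the other pairs of lists.

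The H3K4me3 peaks under the consistent peaks elsewhere were called in both strains, and their median width was below that at all H3K9me3 peaks. H3K4me3 was called in both strains at 58 of the 61 mt+ peaks and 166 of the 171 mt- peaks. In WT mt+ the H3K4me3 peaks at the 61 places had a median width of 611 bp (quartiles 547 and 684), beside 888 bp (714 and 1138) at all H3K9me3 peaks. In WT mt- those at the 171 places had 710.5 bp (619.5 and 877.75), beside 919 bp (741 and 1180). H3K4me3 widths were not used by the rule, but H3K9me3 and H3K4me3 libraries of a strain and genotype share an input per the labels, and narrow H3K9me3 peaks were selected.

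The rank of the H3K4me3 peaks differed between the strains at the 171 mt- places. Ranked by fold within each H3K4me3 list, their median was 42.4% down the WT mt- list and 46.8% down the dnmt1 mt- list, but 61.9% and 62.3% down the WT and dnmt1 mt+ lists. All WT mt- H3K9me3 peaks had medians of 42.7% and 42.0% in mt- and 41.4% and 41.0% in mt+. At the 61 mt+ places the medians were 56.8% and 57.2% in mt+ and 62.3% and 66.6% in mt-, beside 40.1% and 40.5% in mt+ and 43.2% and 41.3% in mt- for all WT mt+ H3K9me3 peaks. In both sets, H3K4me3 ranked lower in the strain without the H3K9me3 peak, in WT and in dnmt1. For the mt+ set the medians of all peaks differed in the same direction, so part of its difference is shared by the whole list. For the mt- set the medians of all peaks differed in the reverse direction. Ranks are positions within a list, and no test of the difference was made.

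Consistent peaks of both strains lay on all 17 chromosomes. The counts per chromosome were small, and no test of differences between chromosomes was made. Chromosomes held 1 to 6 consistent mt+ peaks, or 0.224% to 1.53% of their WT mt+ peaks. For mt- they held 3 to 29, or 0.668% to 2.82%, with chromosome 6 highest. Beyond its first 1 Mb, chromosome 6 held 15. Some lay just past that window: the 100 kb steps from 1000 to 1400 kb held 1, 2, 1 and 2. Steps within the first 1 Mb held 0 to 4. The 1 Mb edge is not a known border of the mating-type region in this build. The second mt- group, of 3 peaks, lay on chromosome 7 from 6353000 to 6374445 and had H3K4me3 in both WT strains at all 3.

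A few consistent peaks had no H3K4me3 and lay at H3K9me1 instead. No H3K4me3 peak of the strain, WT or dnmt1, lay at 3 mt+ peaks (4.11%, 1.41 to 11.4) and 4 mt- peaks (2.16%, 0.844 to 5.43), beside 0.407% and 0.209% of the lists. In mt+ these were a peak of chromosome 17 (4459557 to 4459883; H3K9me3 folds of 2.06 in WT and 3.31 in dnmt1), another of chromosome 4 (4101918 to 4102165; 1.97 and 2.16) and a last of chromosome 7 (6661 to 6933; 1.94 and 1.80). An H3K9me1 peak lay on each in all 4 WT and dnmt1 libraries. Their WT mt+ -log10 q was low, at 4.04, 3.75 and 3.93 in that order. An mt- H3K9me3 peak lay 246, 146 and 428 bp away. The best-ranked 3 in mt- were a peak of chromosome 17 (31999 to 32279; 2.02 and 2.41), another of chromosome 10 (6780525 to 6780844; 1.86 and 2.97) and a last of contig 18 (85042 to 85302; 1.79 and 1.82). H3K9me1 was called in all 4 libraries at the first and second of these, and in both WT libraries at the contig. Their WT mt- -log10 q was 4.72, 3.62 and 4.28, and the nearest mt+ H3K9me3 peak lay 518, 465 and 28780 bp away.

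Monomethylation marks were called at few consistent peaks. WT H3K9me1 peaks of the same strain lay on 6 of the 73 mt+ peaks (8.22%, 3.82 to 16.8) and 6 of the 185 mt- peaks (3.24%, 1.49 to 6.89), beside 2.27% and 2.37% of the lists. With a -log10 q of at least 5 in all 4 H3K9me3 lists these shares were 3.57% and 1.10%. The share of all peaks at that threshold was not computed, so these 2 values have no like comparison. WT H3K4me1 peaks of the same strain overlapped 0 of 73 and 0 of 185. At 3 counts of the total, this allows shares of up to 4.11% and 1.62%. They overlapped 0 of 12026 and 7 of 12430 peaks of the lists (0.0563%). Within 50 kb of a chromosome end lay 2 of the mt+ peaks (2.74%) and 4 of the mt- peaks (2.16%), beside 1.10% and 0.933% of the lists. The mt+ ones were the peaks of chromosomes 4 and 7 without H3K4me3 named above. The mt- ones included those of chromosomes 17 and 10 named above, so these traits are not separate. With that q threshold the shares near an end were 0 in mt+ and 0.552% in mt-, again with no share of all peaks at that threshold.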

How the data were processed

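ChIP-seq peak lists of H3K9me3, H3K4me3, H3K9me1 and H3K4me1 from WT and dnmt1 cells of both strains were used. Per the submitters' processing notes, the tools included MACS2 (version 2.2.7.1), the aligner Bowtie2 (2.4.2), the trimmer Trim Galore (0.6.7) and Picard; settings and build are not given there. The authors deposited, for each peak of a single library, the summit position, a whole-number score, the -log10 of its q-value and of its p-value, and the fold enrichment (a linear ratio). The lowest -log10 q of the H3K9me3 lists was just above 2. Folds and q-values were compared within a list alone.

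Overlaps were computed with Python 3.11.15, numpy 2.4.6 and pandas 2.3.3, and the rule was tested on simulated data. Coordinates are counted from 1. The local background was solved from fold and p with the MACS2 formulae at 1500 summits of each H3K9me3 list. No read depth is given. Named peaks were the 8 best by the worse of the ranks in both lists of the strain, the 3 widest, up to 10 at the mating-type sequences (the others there were named after their values were seen), the 3 best without H3K4me3 and groups of at least 3 within 20 kb. The members, lists and windows were chosen with earlier results of these data known. Alternatives changed the q threshold, the overlap, the gap, the list counted, the genotypes and the sequences used.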

Additional observations from a re-analysis of the deposited data

How the results depend on the processing

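Judging by 1 genotype, which drops the need for a peak in the second list of the strain and for its absence from the second list of the other, gave longer lists: 397 mt+ and 832 mt- peaks with WT alone, and 598 and 853 with dnmt1 alone. With a -log10 q of at least 5 required in the strain and absence judged on the full lists, 41 mt+ peaks remained (124 in mt-, within 1.5 times of the 185). The other alternatives kept both counts within 1.5 times, including leaving out mating_type_plus and the first 1 Mb of chromosome 6, added after the data were seen (61 and 171). The share with WT H3K4me3 rose to 98.2% in mt+ and 99.4% in mt- with that q threshold in all 4 lists, to 99.2% in mt- with it in the strain alone, and to 98.1% in mt+ with no peak within 1000 bp. Merged loci gave 98.6% and 98.9%, and the dnmt1 list 98.6% and 98.9%. The dnmt1 libraries alone gave 87.0% in mt+ and 80.8% in mt-, and the WT libraries alone 89.4% and 98.1%. The share of all H3K9me3 peaks was not computed under these alternatives, so these shifts have no like comparison. No paired analysis was possible because the counts come from no test and the labels give no replicate numbers; strains were set against each other within each genotype by the rule itself. The lack of replicates and of read depth limits every count: a peak missing from a list may lie just under the threshold, and strain, library and depth cannot be told apart.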
